A study of Mus musculus with 2 samples.

Results

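The genes described here are 10 genes of the circadian clock, namely Clock, Arntl (also known as Bmal1), Per1, Per2, Per3, Cry1, Nr1d1, Nr1d2, Dbp and Tef. They were taken by exact gene symbol from the annotation of the array platform, and make up 10 of 18194 genes named there. All 10 were found, through 25 probe sets, and each gene is given by its brightest probe set over both arrays and then by every probe set. The series holds 2 Affymetrix mouse genome arrays, 1 of small intestine and 1 of colon, each from biopsy tissue of wild-type adult mice. The labels name no mutant allele and no treatment for either. Per the methods of the study, its mice were C57B6 animals of an SPF facility under a light-dark cycle with free access to food, and its tissues were jejunum and distal colon, but whether this holds for these arrays is not known. No source used here gives the time of day at which tissue was taken. With 1 array per tissue, tissue, animal and time of sampling cannot be told apart, no test was made, and no value has a replicate error.

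The clock is a transcriptional feedback loop that runs in nearly every mammalian cell over the course of a day. CLOCK and BMAL1, the product of Arntl, bind as a pair to E-boxes and switch on the Per and Cry genes, whose proteins return to the nucleus and block the pair. The same pair drives Nr1d1 and Nr1d2, which encode the nuclear receptors REV-ERB alpha and beta that repress Arntl, and Dbp and Tef, which encode PAR bZIP factors that pass the rhythm on to output genes through D-boxes. Because of this wiring, transcripts of Arntl peak at about the opposite time of day to those of Dbp in mouse tissues. In the gut, the clock is known for daily rhythms of nutrient transporters and of cell division.

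Stretches of the promoters of 6 members are shown because they hold matches to motifs that clock factors are known to bind. The sequences are from RefSeq (GRCm38.p6), which gave 14 windows for 9 of the 10 members, each running from 250 bases before an annotated start to 50 bases after it. Per2 has no window in the table used. Both strands were searched for the E-box (CACGTG), the E'-box (CACGTT, or its reverse complement), the D-box (TTATGTAA or TTACGTAA), the ROR response element (RORE) bound by the REV-ERB receptors, and the cAMP response element (TGACGTCA). The motifs found are in capitals, and each sequence reads 5′ to 3′ on the strand of its gene.
Tef, first start, E-box, chr15:81802519-81802578, plus strand: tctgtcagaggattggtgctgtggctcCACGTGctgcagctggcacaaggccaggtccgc
Tef, second start, E-box, chr15:81811249-81811308, plus strand: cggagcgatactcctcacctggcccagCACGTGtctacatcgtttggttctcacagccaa
Per1, E-box, chr11:69098756-69098815, plus strand: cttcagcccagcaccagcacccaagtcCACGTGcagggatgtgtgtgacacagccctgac
Cry1, E'-box and E-box, chr10:85185092-85185151, minus strand: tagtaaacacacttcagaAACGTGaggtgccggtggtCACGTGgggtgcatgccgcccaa
Nr1d1, E'-box, chr11:98775378-98775437, minus strand: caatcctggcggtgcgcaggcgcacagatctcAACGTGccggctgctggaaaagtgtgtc
Per3, 2 D-boxes, chr4:151044814-151044873, minus strand: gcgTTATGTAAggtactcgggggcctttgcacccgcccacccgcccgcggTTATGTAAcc
Arntl, RORE, chr7:113207527-113207556, plus strand: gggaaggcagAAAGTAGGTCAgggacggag

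An E-box was found in 4 of the 14 member windows, those of Tef (both starts), Per1 and Cry1, and in 7.15% of all 32851 windows. The E'-box was found in 2 member windows (4.68% of all), the D-box in the window of Per3 (1.06% of all) and the RORE in 1 window of Arntl (0.384% of all). No member window held the cAMP response element (1.79% of all). The letters of none of these motifs are in the windows of Dbp, Clock and Nr1d2. A match describes the sequence and does not show that a factor binds there.

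**Figure D1:**
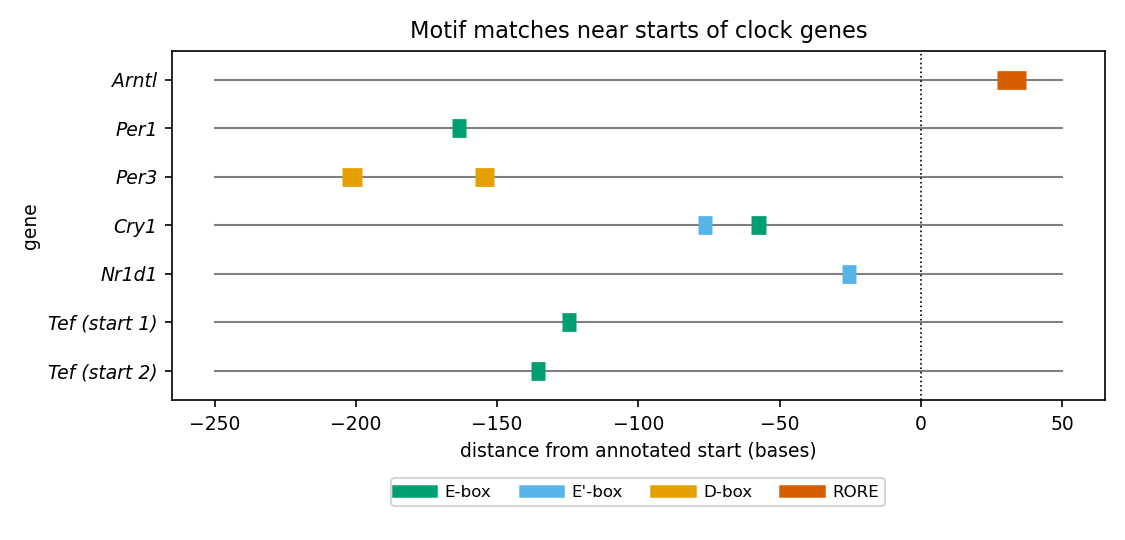
Each line is the window of 1 annotated start of a clock gene, from 250 bases before the start to 50 bases after it, and boxes are motif matches on either strand. Only windows with a match are drawn. The E-boxes of Tef, Per1 and Cry1 lie before the start, and the RORE of Arntl lies 27 to 37 bases after it.

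Levels below are log2 expression values as deposited, and differences are those of the small intestine minus the colon on the log2 scale, with values under the background level of 5 raised to it. A gene is called higher in a tissue at 3-fold or more, and where it lay at background in the other tissue the fold is a lower bound. On the small intestine array 10 of the 10 members lay above background, against 7 of 10 on the colon array. Over all 18194 genes these shares were 57.3% for the small intestine, against 57.2% for the colon. The count of members depends on the cutoff, since Per2 (5.98), Per1 (5.47) and Nr1d1 (5.17) passed it on the small intestine array alone. Under the alternative background of 6, these 3 lie at background on both arrays. Dbp was the only member called higher in the small intestine, and none was called higher in the colon. At this fold, 5.71% of the 11016 genes with signal on at least 1 array were called for the small intestine, against 5.49% for the colon, so that 1 of 10 members in 1 direction is near this background. At 2-fold or more, 2 members (Dbp and Tef) were higher in the small intestine and 1 (Arntl) in the colon, where 11.5% and 13.4% of all these genes were. The median difference of the members was 0.11, against -0.06 over the 11016 genes, and the median size of the difference was 0.41, against 0.52.

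**Figure D2:**
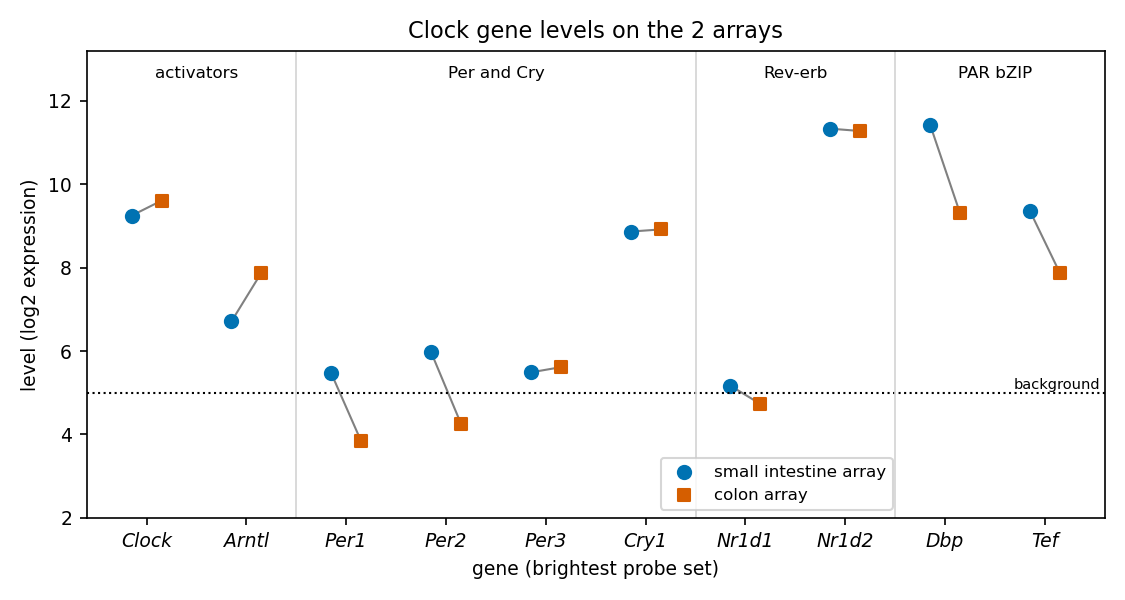
The level (log2 expression) of each clock gene in the small intestine (circles) and in the colon (squares), grouped by role. The dotted line is the background level of 5. Dbp and Tef are higher on the small intestine array, Arntl is higher on the colon array, and the points of Cry1 and Nr1d2 nearly coincide.

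The largest difference among the members was that of Dbp, the PAR bZIP factor with one of the strongest daily rhythms in mouse tissues. Dbp had a level of 11.43 in the small intestine, against 9.31 in the colon, which is 4.36-fold higher in the small intestine. This difference of 2.12 was larger than that of 93.7% of the 11016 genes. The _s suffix of this probe set marks probes that can match more than 1 transcript, but the second probe set of Dbp, which has no such mark, went the same way. It had 6.94 in the small intestine, against 4.67 in the colon, which is at least 3.84-fold higher. Under the alternative settings of background, scaling and probe set choice the difference of Dbp lay between 1.94 and 2.37, and the call was lost only at a fold of 5.

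Tef, a second PAR bZIP factor, had a level of 9.36 in the small intestine, against 7.87 in the colon. This is 2.80-fold higher in the small intestine, just under the fold for a call, and larger than the difference of 87.4% of genes. It rests on 1 probe set, since the other 2 of Tef lay at background on both arrays, at 3.79 or less. The third factor of this family, Hlf, was not among the members. Hlf had 6.73 in the small intestine, against 3.39 in the colon, so its call rests on a lower bound of 3.32-fold, which a background of 6 brings under 3-fold (a difference of 0.73). Its second probe set had 5.47 in the small intestine, against 3.20 in the colon. All 3 PAR bZIP genes had higher levels on the small intestine array, with folds of 4.36, 2.80 and at least 3.32. Nfil3, which encodes the repressor that competes with this family for D-boxes, had 5.13 in the small intestine, against 5.27 in the colon, near background in both.

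**Figure D3:**
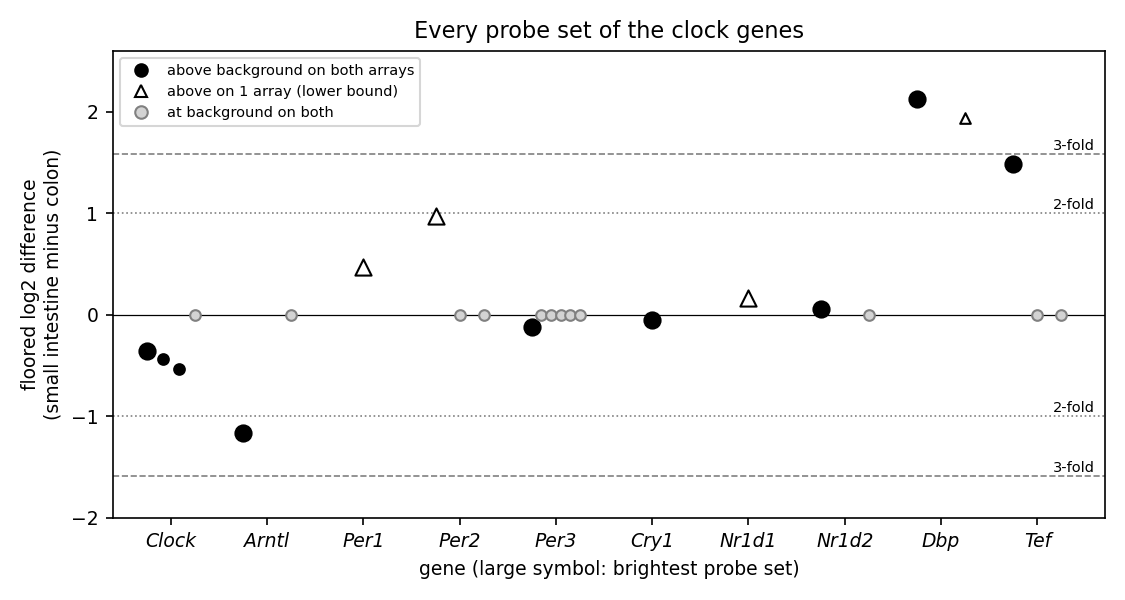
The difference (small intestine minus colon, floored log2) of each of the 25 probe sets of the clock genes, with the brightest of a gene as the large symbol. Black circles were above background on both arrays, open triangles on 1 (lower bounds) and grey circles on neither. Dashed lines mark 3-fold, which both probe sets of Dbp pass, and dotted lines 2-fold.

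The activators were both lower in the small intestine, without reaching the fold for a call. Arntl had a level of 6.71 in the small intestine, against 7.88 in the colon, which is 2.25-fold higher in the colon. The size of this difference was above that of 80.5% of genes. The other probe set of Arntl lay at 3.15 in the small intestine, against 3.14 in the colon, both background, so the value of Arntl rests on 1 probe set. This probe set carries the _a suffix of probes shared between transcripts. Without probe sets so marked, only the probe set at background is left for Arntl. The difference of Arntl was then 0, and no member was 2-fold higher in the colon, but this setting cannot judge the difference of Arntl. Clock had 9.25 in the small intestine, against 9.61 in the colon, a difference of -0.36 (1.28-fold higher in the colon). Its other probe sets above background had 8.18 and 6.96 in the small intestine, against 8.62 and 7.49 in the colon. All 3 thus had the same sign, with differences of -0.36, -0.43 and -0.53. Npas2, a paralog that can stand in for Clock, had 7.15 in the small intestine, against 7.10 in the colon.

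The Period and Cryptochrome genes, which encode the repressors of the loop, fell into a pair that was dim and higher in the small intestine and a pair that hardly differed. Per2 had 5.98 in the small intestine, against 4.26 in the colon, so its fold is 1.97 or more. Per1 had 5.47 in the small intestine, against 3.84 in the colon, so its fold is 1.38 or more. Both were above background on the small intestine array alone, so their folds are limited by the floor. Without the floor their differences were 1.72 and 1.63, past 3-fold, and 3 members in place of 1 were then higher in the small intestine. The other probe sets of Per2 lay at background on both arrays, and Per1 has a single probe set.

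Per3 had 5.49 in the small intestine, against 5.61 in the colon, and the other 5 of its 6 probe sets lay at background in both tissues. Cry1, read by 1 probe set, had 8.86 in the small intestine, against 8.91 in the colon. Only 14.1% of the 11016 genes had a smaller difference than Per3 (-0.12) and 6.34% a smaller one than Cry1 (-0.05). Both changed sign when the arrays were centred on hybridization spike-ins (0.12 for Per3 and 0.20 for Cry1), and Cry1 also after quantile normalization (0.03). The spike-in centring rests on 1 transcript, bioC, whose 4 probe sets differed by -1.44 on average, against 0.09 for the other 14, and without bioC the differences were -0.22 for Per3 and -0.14 for Cry1. Cry2, the paralog of Cry1, had 5.90 in the small intestine, against 6.19 in the colon.

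The Rev-erb receptors also differed little. Nr1d2 was bright on both arrays, with 11.33 in the small intestine, against 11.28 in the colon (1.04-fold), and its sign too depended on the setting, with -0.02 when the median over probe sets was taken and -0.03 after centring on spike-ins without bioC. Its second probe set lay at background in both. Nr1d1 had 5.17 in the small intestine, against 4.73 in the colon, close to the background level on both arrays, with a fold of 1.12 or more. Of the ROR activators that compete with these receptors, Rora had 5.76 in the small intestine, against 5.27 in the colon, and Rorb lay at background in both.

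**Figure D4:**
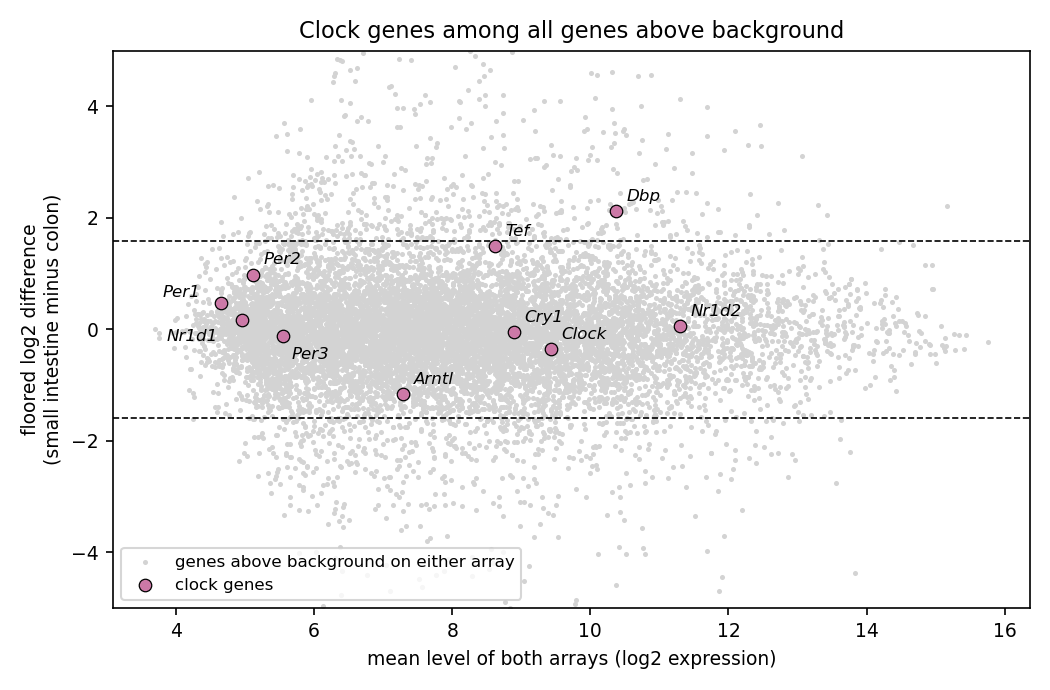
The floored log2 difference (small intestine minus colon) of each gene with signal on at least 1 array, over its mean level on both arrays (log2 expression), with the clock genes as labelled points and dashed lines at 3-fold. The axis leaves out 98 of 11016 genes with larger differences. Dbp lies above the upper dashed line, Tef just under it, and the other members between the lines.

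Of the 25 probe sets of the members, 9 were above background on both arrays, 4 on 1 array and 12 on neither. Without a floor, these 12 differed by at most 0.13 between the arrays. For probe sets above background on both arrays, the pooled SD of the differences between probe sets of 1 gene was 0.54 over 3535 genes. The sizes of the differences of Dbp, Tef and Arntl were above this SD, and those of Clock, Per3, Cry1 and Nr1d2 were below it. This SD covers the disagreement of probe sets and not the spread between animals.

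Around the members, most genes of the clock machinery differed by less than 3-fold. So did most of the 11016 genes with signal, of which 5.71% were called for the small intestine, against 5.49% for the colon. Of 11 measured paralogs and partners, 1 (Hlf) was called for the small intestine, against 0 for the colon, and the median of the differences was 0. The repressor gene Bhlhe40 (Dec1) had 8.85 in the small intestine, against 9.81 in the colon (1.94-fold higher in the colon), and Timeless had 6.56 in the small intestine, against 5.86 in the colon. Ciart, a repressor with a strong daily rhythm, lay under background on both arrays, at 4.93 in the small intestine, against 4.24 in the colon. Arntl2, a paralog of Arntl, was just above background on the colon array alone (3.14 in the small intestine, against 5.03 in the colon).

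Of 13 measured genes that modify clock proteins, 1 was called in each direction. With a list this short, this is near the shares over the 11016 genes with signal (5.71% for the small intestine, against 5.49% for the colon). Usp2, a deubiquitinase gene that is itself driven by the clock, had 9.64 in the small intestine, against 7.73 in the colon (3.77-fold higher in the small intestine). Its second probe set gave 4.03-fold. Prkaa2, a catalytic subunit of the energy sensor AMPK, which phosphorylates CRY1, had 7.56 in the small intestine, against 10.71 in the colon (8.90-fold higher in the colon), and a second probe set had 5.35, against 8.84. The other catalytic subunit gene, Prkaa1, had 7.62 in the small intestine, against 7.60 in the colon. Btrc, part of a ubiquitin ligase for PER proteins, was 2.20-fold higher in the colon and its paralog Fbxw11 2.00-fold higher in the small intestine, although a second probe set of Fbxw11 had 9.48 in the small intestine, against 9.66 in the colon. The casein kinase gene Csnk1e differed by -0.72 and Csnk2a1 by 0.84. The probe sets of Csnk1d disagreed, with -0.38 for the brightest and 0.33, 1.34, 0.33 and 0.71 for the others. Those of the kinase gene Gsk3b disagreed too, with -0.99 for the brightest and -0.81, 0.36 and 0.01 for the others above background.

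By the brightest probe set, none of 11 coregulators and none of 13 clock-controlled output genes reached 3-fold. Among the 11016 genes with signal, 5.71% were called toward the small intestine and 5.49% toward the colon. With lists this short, the absence of calls does not set them apart from this background. A dimmer probe set of the output gene Ppara had 7.27 in the small intestine, against 5.53 in the colon (3.35-fold). The brightest probe set of Ppara differed by -0.30 and the remaining probe set by 0.01. The coregulator list had a median difference of -0.34, which turned to 0.30 with the median over probe sets and to 0.22 without shared probe sets. Its lowest values were those of Tbl1xr1 (-0.87) and Crebbp (-0.71), but other probe sets of both went the other way, by up to 0.82 for Tbl1xr1 and 0.73 for Crebbp. Among the outputs, whose median was 0, the largest differences by the brightest probe set were those of Klf9 (-0.99), Pdk4 (-0.81), Cdkn1a (0.77) and Alas1 (-0.55). Klf9 has no settled direction, since a second bright probe set had 11.99 in the small intestine, against 10.76 in the colon (1.23), and the others above background gave -1.06, 0.91 and -0.08. Wee1, a cell cycle kinase gene driven through E-boxes, had 7.18 in the small intestine, against 6.98 in the colon. The median of the outputs was thus close to that of the 11016 genes with signal (-0.06). It is the value of Rgs16, which lay at background on both arrays, and the median of all named genes was 0 too.

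Genes of gut transport that have a daily rhythm in rodents differed far more than the clock genes. The list holds mostly genes of nutrient uptake and chylomicron assembly and was chosen with earlier results of these data known. No value here measures a rhythm, and whether a rhythm has a part in these differences was not tested. Of 10 measured, 7 were called for the small intestine, against 1 for the colon, and the median of the differences was 3.75. Among the 11016 genes with signal, 5.71% were called for the small intestine, against 5.49% for the colon, and the median was -0.06. Small intestinal epithelial markers went the same way, with 6 of 7 called for the small intestine and a median of 8.34. The peptide transporter gene Slc15a1, which DBP activates in rodents, had 12.30 in the small intestine, against 7.71 in the colon (24.2-fold), and the glucose transporter gene Slc5a1 had 14.29 in the small intestine, against 10.62 in the colon (12.7-fold). Mttp, needed for chylomicron assembly and repressed through a CLOCK target, had a fold of at least 314 toward the small intestine, Slc2a2 of at least 150, Abcc2 of at least 17.4, Slc2a5 of at least 14.2 and Apob of 10.6. Abcb1a, a drug efflux pump gene that PAR bZIP factors activate, had 11.01 in the small intestine, against 13.18 in the colon (4.52-fold higher in the colon), opposite to Dbp, Tef and Hlf. The sodium-proton exchanger gene Slc9a3 had 10.15 in the small intestine, against 10.28 in the colon.

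**Figure D5:**
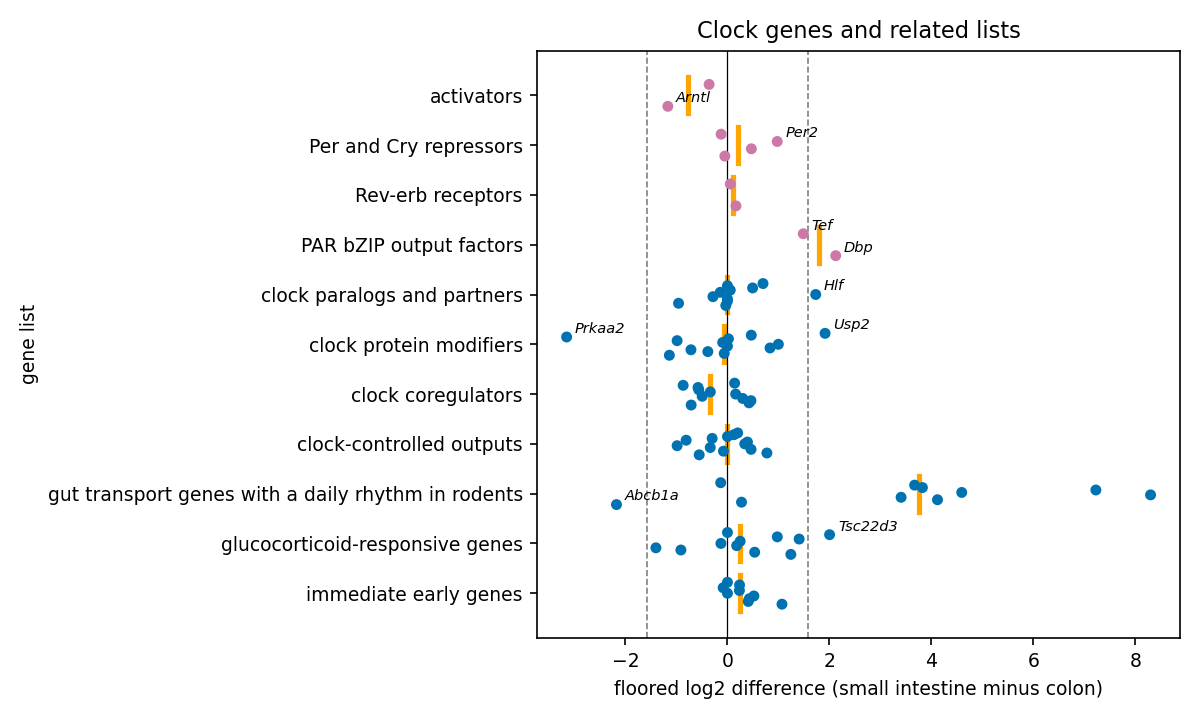
The floored log2 difference (small intestine minus colon) of each gene of a list, with clock members in pink, other genes in blue, list medians as orange bars and dashed lines at 3-fold. The medians of the clock lists outside the PAR bZIP pair lie between -0.76 and 0.21. That of the gut transport genes, mostly genes of nutrient uptake and chylomicron assembly, is 3.75.

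Epithelial markers went with the tissue labels, and markers of other cell types differed between the arrays. Of 7 small intestinal epithelial markers 6 were called for the small intestine, of 8 colonic markers 8 for the colon, and 1 of 8 pan-epithelial markers reached 3-fold. Of 8 T and NK cell markers, 5 were higher in the small intestine. Fibroblast and matrix markers were mixed, with 1 of 8 called for the small intestine, against 3 for the colon. Of 6 measured markers of enteric neurons and glia, 0 were called for the small intestine, against 2 for the colon. Of 8 smooth muscle markers 6 were higher in the colon, as were all 9 measured exocrine pancreas markers (levels of 2.30 to 8.07 in the small intestine, against 9.76 to 13.95 in the colon). The summed level of the T and NK cell list was 13.25 in the small intestine, against 9.09 in the colon, and that of smooth muscle was 13.14 in the small intestine, against 14.59 in the colon (log2 of the sum). That of exocrine pancreas was 8.61 in the small intestine, against 15.56 in the colon. The part of these cells in the values of the clock genes was not tested, and in bulk tissue fewer cells of a type and less RNA per cell cannot be told apart.

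The arrays also differed in their labelling controls. Poly-A spike-ins read at their 5' end were lower on the small intestine array, with a median difference of -2.30 over 8 probe sets, against 0.26 over 8 probe sets at the 3' end. The 5' probe set of Gapdh differed by -1.27 and its 3' probe set by 0.02. Where the probe sets of the clock genes lie on their transcripts is not given in the files used, and the part of this difference in the values of the clock genes was not tested.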

How the data were processed

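Total RNA was extracted with a Qiagen RNeasy kit, checked on a Bioanalyzer, labelled with biotin and hybridised to the arrays. The authors deposited 1 log2 expression value for each probe set. The submitters' processing notes name GCRMA, a background correction by probe base composition that can widen folds against a dim value, while the study's methods give RMA for arrays it deposited elsewhere, and no version or set of jointly normalized arrays is given. The values, 45101 per array between 0.73 and 16.97, were used without further scaling. Genes were named through the platform annotation, in which 34958 probe sets had 1 gene. Of these, 34754 matched the RefSeq gene table (GRCm38.p6) by identifier, with no symbol changed, and 932 probe sets with several genes were left out. No locus coordinates are given, as the deposited values name no genome build. Values under 5 were raised to 5, and the call was a floored difference of 3-fold. The study uses this fold for its sequencing values, after adding 1 to the value of the second tissue, so the measure differs. Members, gene lists and settings were chosen with earlier results of these data known. All probe sets of the members were named, with list genes past 3-fold and up to 4 others of each list with the largest differences, and some genes of known role were named after their values were seen. The number of arrays limits the precision, and the procedure was tested on simulated data. Alternatives were background levels of 4 and 6, no floor, folds of 2 and 5, quantile normalization, centring on hybridization spike-ins or on the median, the median over probe sets, and leaving out probe sets marked _x, _s or _a. Centring on spike-ins without bioC was added after seeing the data. Python 3.11.15, numpy 2.4.6, pandas 2.3.3 and matplotlib 3.10.9 were used.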

Additional observations from a re-analysis of the deposited data

How the results depend on the processing

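The count of clock genes called higher in the small intestine, 1 as reported, was 2 with a background of 4, 3 with no floor, 2 at a fold of 2, 0 at a fold of 5 and 2 after centring on hybridization spike-ins. The count called higher in the colon, 0 as reported, was 1 at a fold of 2 and 0 under the other alternatives. The median difference of the members lay between 0 and 0.30. Of 89 member values under alternatives, 80 moved by less than the pooled SD of 0.54 and 9 by more. Many of the 80 could not have moved further. Each centring shifts all genes by 1 constant smaller than this SD, and the floor settings leave genes above 6 on both arrays unchanged. Reversal was judged only for called values, which among the members is Dbp, and Dbp kept its sign. Per3, Cry1 and Nr1d2, which were not called, changed sign under some settings. Tef became 0 and Arntl -0.51 with the median over probe sets, which counts their probe sets at background, and Arntl became 0 without its _a probe set. Per2 (0 with a background of 6 or the median over probe sets, 1.72 with a background of 4) and Per1 (1.47 with a background of 4) followed the floor. Cry1 has no value without probe sets marked _a. Centring on hybridization spike-ins moved the median of genes above background to 0.17, against -0.06, and gave 837 genes called for the small intestine, against 446 for the colon, against 629 and 605. This rests on the bioC spike-in, and without it (chosen after seeing the data) the median was -0.14, with 574 genes called for the small intestine, against 667 for the colon, and 1 clock gene (Dbp). Hlf was under 3-fold with a background of 6 (0.73) and with the median over probe sets (1.10), while Usp2 (1.82 to 2.16) and Prkaa2 (-3.50 to -2.90) kept their calls, except that Usp2, like Hlf, lost its call at a fold of 5. The median of the coregulators was 0.30 with the median over probe sets and 0.22 without shared probe sets, in place of -0.34. No paired analysis was possible because each tissue has 1 array, and for the same reason no array could be left out.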

Other observations

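Because Per1 also responds to glucocorticoids and to acute stimuli, genes of both kinds are given as values. Of 11 glucocorticoid-responsive genes, 1 was called for the small intestine, against 0 for the colon, and the median of the differences was 0.25. Among the 11016 genes with signal, 5.71% were called for the small intestine, against 5.49% for the colon, and the median was -0.06. With a list this short, 1 call does not set it apart from this background, and the count was 0 with the median over probe sets. Tsc22d3 (GILZ), a classical glucocorticoid target, had 9.64 in the small intestine, against 7.63 in the colon (4.01-fold higher in the small intestine). Another probe set, also marked _a, had 8.27 in the small intestine, against 5.90 in the colon (5.17-fold). A dimmer probe set, marked _x, had 5.55 in the small intestine, against 5.56 in the colon. The difference of Tsc22d3 was 1.18 with the median over probe sets. Without probe sets marked _x, _s or _a it was 0. Only a probe set at background on both arrays (2.28 in the small intestine, against 2.26 in the colon) is then left, so this setting cannot judge the difference. Nfkbia had 12.98 in the small intestine, against 11.57 in the colon (2.65-fold), and Cebpd 7.36 in the small intestine, against 6.12 in the colon (2.37-fold). Errfi1 went the other way, with 10.14 in the small intestine, against 11.55 in the colon (2.64-fold higher in the colon). Its dimmer probe set had 5.45 in the small intestine, against 7.17 in the colon (3.29-fold). This is past the fold for a call, but calls rest on the brightest probe set. Fkbp5 differed by 0.18 and Sgk1 by 0.98. None of 9 immediate early genes reached 3-fold, and their median was 0.24. With a list this short, the absence of calls does not set it apart from all genes with signal. Without the floor 1 of them, Egr2, was past 3-fold, with 5.43 in the small intestine, against 3.83 in the colon (a difference of 1.60). Atf3 had 8.10 in the small intestine, against 7.04 in the colon (2.10-fold), and Fos had 12.58 in the small intestine, against 12.06 in the colon. Whether these values move with those of Per1 was not tested, as there is 1 array per tissue.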
